A study of Drosophila melanogaster with 3 samples.

Results

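The 1065 regions described here were those of the thresholded chif-eGFP list that replicates 1 and 3 placed among their strongest regions and replicate 2 did not. They were 21.2% of that list on the genome build dm6, which held 3970 other regions. Members were chosen by signal values: from each replicate the strongest regions were taken, as many as the thresholded list holds, and called its top regions. A member contained a summit, the point of highest signal, of a top region of replicate 1 and of replicate 3, and none of replicate 2. The 2815 regions that contained such a summit of each of the 3 replicates (55.9%) served for comparison and are called the all-3 regions. Replicates 1 and 2 alone backed 182 regions and replicates 2 and 3 alone backed 340.

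The material was chromatin of whole Drosophila melanogaster embryos of mixed sex, aged 0 to 24 h, from the strain chif-RB-GFP. Its transgene adds GFP to the C-terminus of chif, and DNA fragments of 200 to 800 bp bound to the fusion protein were recovered with an anti-GFP antibody and sequenced. All 3 libraries are biological replicates of this 1 group, so no treatment or genotype was compared. The embryos span many stages and all tissues, and an untagged line was not analysed here. The strain name carries the transcript chif-RB for all 3 replicates, but the note on the fusion names it for replicate 1 only, so which chif products carry GFP is not known here. Read counts are not part of the lists, and library depth is therefore unknown.

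Chiffon belongs to the Dbf4 family, whose members switch on the Cdc7 kinase at replication origins. A second product of the chif gene belongs to an acetyltransferase complex with Gcn5. Promoters of fly housekeeping genes often carry the DNA replication-related element (DRE, bound by Dref), the BEAF-32 core (CGATA, bound by the insulator protein BEAF-32) or motif 1 (bound by M1BP), whereas many regulated promoters carry a TATA box. CTCF is an insulator protein that binds a longer element both at and away from promoters.

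The sequences below are examples of what the member summits held more often and less often than the all-3 summits. Each is on the plus strand and runs 50 bp to either side of the summit, from RefSeq's Release 6 sequence, which is the sequence of dm6. The first 3 are member promoters of high signal with a BEAF-32 core in this stretch, capitals marking CGATA or its complement TATCG. The 3 after them, chosen once the shares were known, carry the DRE core TATCGATA, the motif 1 core GGTCACAC and the CTCF core AGNTGGCGC or its complement in capitals. The last 3 are all-3 promoters of high signal with a TATA box, TATAAA or its complement in capitals. These examples do not come from all chromosome arms, so stronger ones may exist elsewhere. Capitals mark only the motif for which a stretch was chosen. In lower case the all-3 stretches of CHMP2B and Shc also hold TATCG, and the member stretches of Bgb and RpS25 also hold TATAAA. The RpL22 region (chrX:765146-765246), the Bgb region (chr3L:1639484-1639584) and the yps region (chr3L:12125131-12125231) are followed by those of RpS25 (chr3R:11216294-11216394), RpLP0 (chr3L:22076009-22076109) and CG10600 (chr2L:18839688-18839788), and by the all-3 regions of CHMP2B (chr3L:5139458-5139558), Shc (chr3L:9426837-9426937) and CG18549 (chr3R:12449130-12449230).
RpL22: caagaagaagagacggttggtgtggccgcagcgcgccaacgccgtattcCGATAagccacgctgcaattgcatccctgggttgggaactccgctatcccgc
Bgb: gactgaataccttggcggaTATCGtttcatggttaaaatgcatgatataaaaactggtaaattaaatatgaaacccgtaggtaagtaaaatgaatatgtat
yps: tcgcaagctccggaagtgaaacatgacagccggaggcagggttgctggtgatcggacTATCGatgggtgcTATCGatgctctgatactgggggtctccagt
RpS25: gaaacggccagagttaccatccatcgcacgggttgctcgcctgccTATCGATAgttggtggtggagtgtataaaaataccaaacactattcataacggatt
RpLP0: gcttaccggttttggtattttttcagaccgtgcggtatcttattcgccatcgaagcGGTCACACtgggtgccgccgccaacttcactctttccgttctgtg
CG10600: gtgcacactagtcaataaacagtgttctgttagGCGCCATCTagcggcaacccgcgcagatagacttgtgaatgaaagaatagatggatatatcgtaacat
CHMP2B: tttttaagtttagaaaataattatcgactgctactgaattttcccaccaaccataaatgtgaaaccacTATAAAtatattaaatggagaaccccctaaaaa
Shc: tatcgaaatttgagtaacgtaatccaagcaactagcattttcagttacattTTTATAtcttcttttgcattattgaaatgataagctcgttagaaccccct
CG18549: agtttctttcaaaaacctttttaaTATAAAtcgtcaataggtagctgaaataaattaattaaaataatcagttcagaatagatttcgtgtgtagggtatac

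The GC content of these stretches was 60.4% at RpL22, which encodes a protein of the large ribosomal subunit, 56.4% at yps, which encodes an RNA-binding cold shock domain protein, and 30.7% at Bgb, which encodes a partner of Runt-type transcription factors. The all-3 examples had 28.7% at CHMP2B, a gene of the ESCRT-III complex, 31.7% at Shc, which encodes a signalling adaptor, and 25.7% at CG18549. The RpL22 region ranked 529, 9326 and 558 in replicates 1, 2 and 3. The yps region ranked 660 and 676 in replicates 1 and 3 and had no summit among the 30000 listed regions of replicate 2, whose nearest summit lay 5288 bp away. The Bgb region is of another kind, because a replicate 2 summit of rank 309 lay 13 bp from the member's summit, outside a narrow deposited region.

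Replicate 2 often listed nothing in the members. Of the 1065 members, 674 (63.3%) contained no summit of the whole replicate 2 list, and 391 contained a summit of rank 5042 to 29777, with a median of 9862. In replicate 1 the members had a median rank of 2769 and a best rank of 176, and in replicate 3 of 2991 and 208. All-3 regions had median ranks of 1609, 1436 and 1569 in replicates 1, 2 and 3. These values chose the members and are given as a description. For the 674 members without a replicate 2 summit inside, the nearest one anywhere lay 2586.5 bp away in the median (quartiles 989 and 5590 bp). In 60 of them it lay within 300 bp, 39 times as a top summit of replicate 2, so that membership there rests on where the deposited region ends. In 8 of them it lay over 40 kb away.

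**Figure D1:**
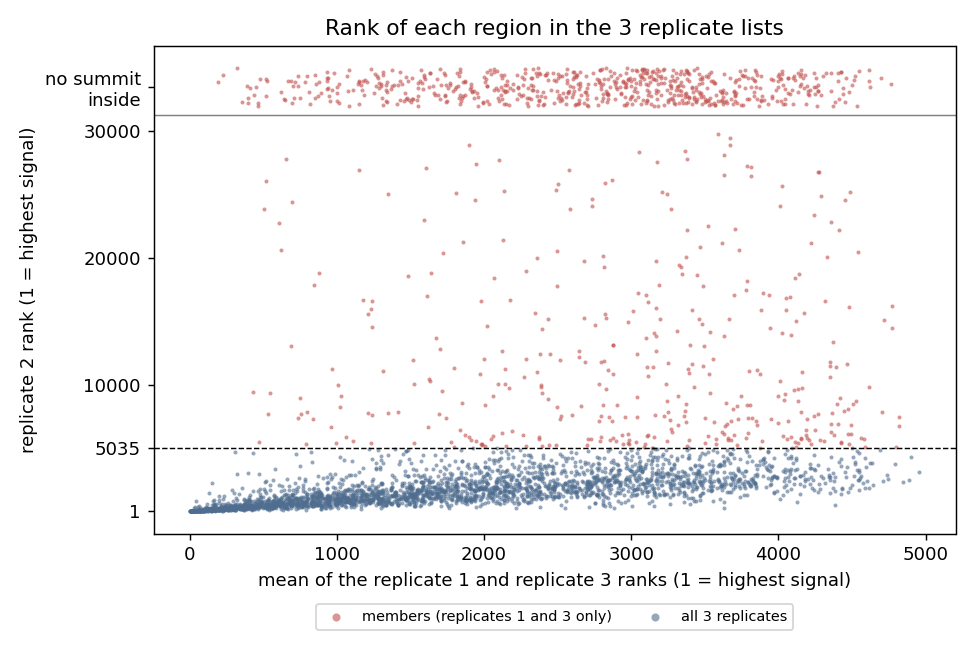
Each point is a region, placed by the mean of its replicate 1 and replicate 3 ranks (x axis) and its replicate 2 rank (y axis), with rank 1 the strongest. The strip at the top holds the 674 members with no replicate 2 summit inside, spread vertically for display, and the dashed line is the last top rank.

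The strongest members included regions that replicates 1 and 3 ranked near the top of their lists. The highest pooled signal, the authors' own score per region, was 665.7, in the 3' UTR of Cals, which encodes a calsyntenin, on chromosome 4 (summit at 1113334). It ranked 199 and 254 in replicates 1 and 3, and the nearest replicate 2 summit lay 47527 bp away. The second, with a signal of 547.6, lay at -377 bp from a TSS of bun, which encodes a TSC22-type leucine zipper protein, on 2L (summit at 12483966), ranked 334 and 451, and was 45630 bp from a replicate 2 summit. An intergenic region on 2R (summit at 13566372) had a signal of 536.5 and ranks of 425 and 355, and the nearest TSS was that of CG42807.

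A region inside kis, which encodes a chromodomain ATPase of the Trithorax group, lay at 46 bp from the TSS of lncRNA:CR44222 with a signal of 510.7 and ranks of 459 and 334. The fifth lay at -308 bp from CG2865 (signal 503.4), with ranks of 501 and 322. None of these 5 contained a replicate 2 summit, so for these 5 no replicate 2 rank exists.

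Among the next 7, the promoter shared by CG7810 and CG7806 had a signal of 500.4 and ranks of 278 and 437. A region upstream of zfh2, a zinc finger homeodomain gene, at -3929 bp on chromosome 4, had a signal of 493.6 and ranks of 207 and 430. A region at -380 bp from a TSS of lola, which encodes BTB zinc finger proteins, had a signal of 479.2 and ranks of 355 and 692, 15736 bp from a replicate 2 summit. Regions at lncRNA:CR44339 (signal 489.95) and in an intron of simj (signal 474.6), which encodes a subunit of the NuRD complex, were 9550 and 4280 bp from one. The other two, at the forkhead gene CHES-1-like (signal 496.5) and between the importin gene Kap-alpha3 and Son (signal 482.1), had a top replicate 2 summit 39 and 96 bp away, just outside the region.

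The last top rank of replicate 2 divides the sets. The 3 members nearest to it had replicate 2 ranks of 5042, 5051 and 5063 and lay at Abca3 (signal 143.9), near the GATA factor gene srp (129.2) and at the lamin gene LamC (119.9). The 3 all-3 regions nearest to it had ranks of 5030, 5021 and 5020 and lay near tRNA:iMet-CAT-2-1 (147.8), between CG30183 and mRpL43 (141.8) and at velo (157.2). Over all members the signal had a median of 148.7 (106.4 to 665.7), against 248.4 (106.3 to 3635) in all-3 regions. Members made up 32.96% of the second signal quartile of the thresholded list and 6.04% of the highest. The pooled signal draws on all 3 replicates, and members lack a top summit of replicate 2. The rule itself therefore favours lower pooled signals in members, and these values are a description only.

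Members lay at promoters more often than all-3 regions and in introns less often. A promoter summit is one within 500 bp of an annotated TSS, and 612 of 1065 member summits (57.5%, exact 95% interval 54.4 to 60.5%) were of this kind, against 1279 of 2815 all-3 summits (45.4%, 43.6 to 47.3%). The difference passed Fisher's exact test (two-sided, adjusted p = 1.41e-10 over 11 features of the regions). Introns held 25.9% of member summits and 35.9% of all-3 summits (adjusted p = 1.09e-08, Fisher's exact test). The intron difference did not pass in the stronger part of the list, above its median signal (-6.58 percentage points, adjusted p = 0.085, Fisher's exact test). Intergenic sequence held 14.0% and 16.3% (adjusted p = 0.114) and coding exons 5 and 4 summits (adjusted p = 0.111), which did not pass Fisher's exact test. With the top 8000 lines of each replicate both passed (adjusted p = 0.00114 and 0.0105, Fisher's exact test). The intergenic difference also passed for members with no summit of the whole replicate 2 list (-4.55 percentage points, adjusted p = 0.00539) and in the weaker part of the list (-5.05, adjusted p = 0.0276, Fisher's exact test). Regions are not replicates, since all come from the same 3 libraries, and these p-values and intervals cover the number of regions only.

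The promoter share was higher among members without a replicate 2 summit (62.8% of 674) than among members with one (48.3% of 391), 2 sets that the replicate 2 list itself separates. Of the 614 members with no replicate 2 summit within 300 bp, 63.2% were at promoters (adjusted p = 8.23e-15 against all-3 regions, Fisher's exact test). In the stronger part of the list, above its median signal of 179.2, promoters held 58.2% of 306 members and 48.3% of 2160 all-3 regions (adjusted p = 0.00804, Fisher's exact test). In the weaker part they held 57.2% of 759 members and 35.9% of 655 all-3 regions (adjusted p = 7.52e-15, Fisher's exact test).

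Members were richer in GC. The sequence 100 bp to either side of the summit had a median GC content of 38.8% in members (quartiles 33.8 and 43.8%) and 34.8% in all-3 regions (31.3 and 38.8%). GC lay above the list median of 35.8% in 671 of 1065 members (63.0%) and in 1153 of 2815 all-3 regions (40.96%, adjusted p = 1.05e-33, Fisher's exact test). Regions backed by replicates 1 and 2 only or by replicates 2 and 3 only had medians of 34.8% and 35.3%, near those of the all-3 regions. Over the thresholded list in order of GC quartile, a top summit of replicate 2 was present in 77.97%, 76.5%, 70.9% and 51.04% of regions. For replicate 1 the shares were 86.3%, 84.9%, 82.1% and 85.98%, and for replicate 3 they were 88.6%, 88.8%, 88.1% and 88.05%. The top lists themselves had like GC medians of 36.8%, 36.8% and 36.3% in replicates 1, 2 and 3, and coding exons held 5.28% of the top summits of replicate 2, against 0.318% and 0.238% in replicates 1 and 3.

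The promoter difference passed in the GC-rich part of the list and not in the rest. Among regions above the list median of GC, 63.04% of 671 members and 45.7% of 1153 all-3 regions were at promoters (adjusted p = 8.85e-12, Fisher's exact test). At or below it the shares were 47.97% of 394 members and 45.2% of 1662 all-3 regions, a difference of 2.72 percentage points that did not pass (adjusted p = 0.649, Fisher's exact test). The difference between these 2 differences was not tested.

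**Figure D2:**
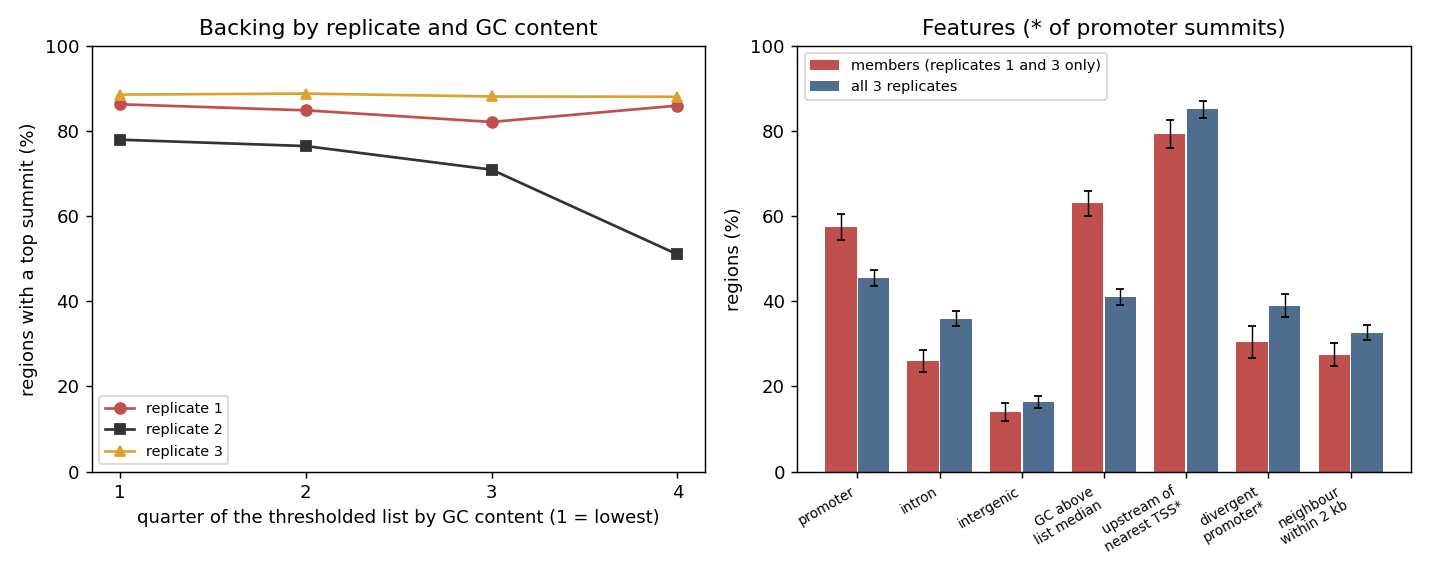
Left, the share of thresholded regions (%) that contain a top summit of each replicate, over GC quartiles of the list; replicate 2 falls to 51.04% in the highest. Right, the share of regions (%) with each feature in members and all-3 regions, with exact 95% intervals; promoter and GC shares are higher in members, the other shares lower.

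At promoters, member summits sat closer to the TSS. The 593 member summits with a TSS of a protein-coding gene at most 500 bp away had a median position of -59 bp (quartiles -123 and -11 bp), against -117 bp (-212 and -56 bp) for 1190 all-3 summits. Within 100 bp of the TSS lay 60.03% of the member summits and 35.97% of the all-3 summits. Regions of replicates 1 and 2 only and of replicates 2 and 3 only had medians of -118.5 and -104 bp. Above the list median of GC the median was -43.5 bp in members and -96 bp in all-3 regions, and at or below it -106 and -128 bp. Members with no replicate 2 summit had a median of -46 bp, and those with a lower one -77 bp.

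Fewer member summits were upstream of the nearest TSS, 471 of 593 (79.4%) against 1013 of 1190 (85.1%, adjusted p = 0.00555, Fisher's exact test). Divergent promoters, with protein-coding TSSs of different genes on both strands within 500 bp, held 180 of 593 member summits (30.4%) and 464 of 1190 all-3 summits (39.0%, adjusted p = 0.00102, Fisher's exact test). Neither difference passed in the stronger part of the list. Above the list's median signal 40.8% of member promoters and 39.4% of all-3 promoters were divergent (adjusted p = 0.759, Fisher's exact test), and 84.02% and 85.04% had the summit upstream (adjusted p = 0.759, Fisher's exact test). In neither part of the list by GC did they pass.

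**Figure D3:**
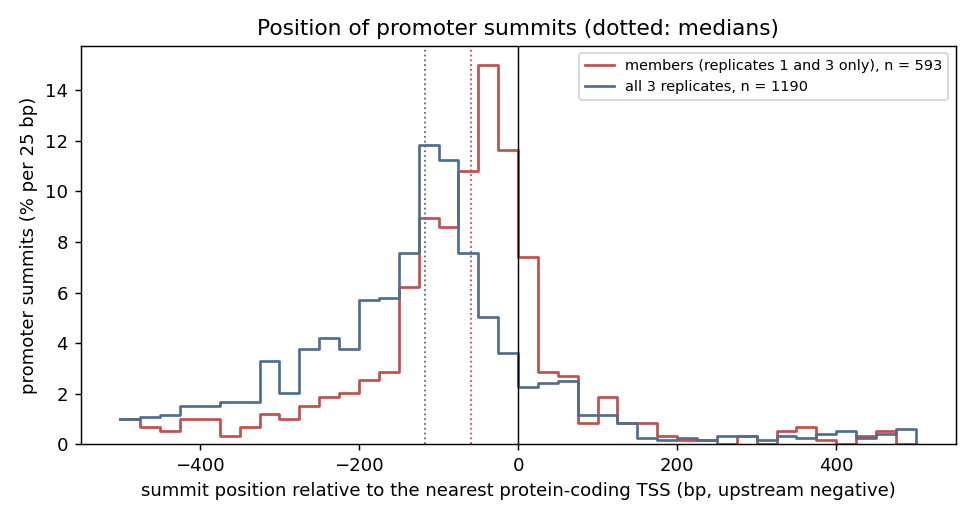
Position of promoter summits relative to the nearest protein-coding TSS (x axis, bp, upstream negative) as a percentage of the summits of each set per 25 bp, for 593 member and 1190 all-3 summits. Dotted lines are the medians of -59 and -117 bp.

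Another thresholded summit lay within 2 kb of 292 members (27.4%) and 919 all-3 regions (32.6%, adjusted p = 0.00366, Fisher's exact test). The difference did not pass in either part of the list by signal (adjusted p = 0.245 in the stronger and 0.0737 in the weaker part, Fisher's exact test). It also did not pass when backing meant a top summit within 100 bp of the region's summit (adjusted p = 0.176, Fisher's exact test).

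Of 18 motifs searched on both strands of these windows, 100 bp to either side of the summit, 9 differed between the sets. The 5 given next were more frequent in members, while the E-box CAGCTG, which like several of them is known from housekeeping promoters, did not pass. The BEAF-32 core CGATA was present in 396 of 1065 member windows (37.2%) and 749 of 2815 all-3 windows (26.6%, adjusted p = 3.59e-09 over the 18 motifs, Fisher's exact test). The DRE core TATCGATA, which contains the BEAF-32 core, was present in 70 (6.57%) and 77 windows (2.74%, adjusted p = 7.87e-07, Fisher's exact test). The motif 1 core GGTCACAC was present in 54 (5.07%) and 53 windows (1.88%, adjusted p = 1.85e-06), Ohler motif 7 in 9.11% and 5.47% (adjusted p = 0.000217) and Ohler motif 6 in 1.502% and 0.391% (adjusted p = 0.00149, Fisher's exact test). Regions of replicates 1 and 2 only held the BEAF-32 core in 33.5% and Ohler motif 7 in 7.69%, nearer to members than to all-3 regions. Those of replicates 2 and 3 only held them in 24.1% and 5%.

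The CTCF core AGNTGGCGC was present in 54 member windows (5.07%) and 73 all-3 windows (2.59%, adjusted p = 0.00061, Fisher's exact test). The repeat CACACACA was present in 4.13% and 2.49% (adjusted p = 0.0203, Fisher's exact test). The TATA box TATAAA was less frequent in members, with 271 windows (25.4%) against 974 (34.6%, adjusted p = 3.81e-07), and so was the A run AAAAAAAA, with 10.9% against 16.02% (adjusted p = 0.00016, Fisher's exact test). Windows of the same width around all 19275 protein-coding TSS positions held the BEAF-32 core in 37.1%, the DRE core in 6.44%, the motif 1 core in 5.68%, the TATA box in 26.9% and the CTCF core in 0.752%. All members, promoters or not, had shares near these for the first 4, and the CTCF core was above 0.752% in members and all-3 regions alike.

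The other 9 motifs did not pass. They were GAGAGA (9.48% of member and 10.9% of all-3 windows), the GATA site GATAAG (12.7% and 10.7%), the E-box CAGCTG of housekeeping promoters (9.58% and 8.13%), the AP-1 site TGANTCA (4.23% and 4.90%), the Su(Hw) core TGCATAC (3.94% and 3.52%), the E2F site TTTNGCGC (3.66% and 3.06%), the Myc E-box CACGTG (2.44% and 2.06%), the Pho core GCCATTTT (2.07% and 1.88%) and the Zelda site CAGGTAG (1.03% and 1.07%). A match of letters is no evidence of a bound site, and no match says only that these letters are not in the window.

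Some motif calls depended on the signal range and the window. In the weaker part of the list, which held 759 of the members, the CACACACA difference was 0.0459 percentage points (adjusted p = 1, Fisher's exact test), and with windows of 50 and 150 bp to either side its call ended (adjusted p = 0.0806 and 0.397, Fisher's exact test). Motif 1 did not pass in the weaker part (adjusted p = 0.0777), Ohler motif 7 in the stronger part (adjusted p = 0.102) and Ohler motif 6 in either (adjusted p = 0.252 in the stronger and 0.0777 in the weaker part, Fisher's exact test). The A run did not pass with the window of 150 bp, nor Ohler motif 6 with that of 50 bp (adjusted p = 0.0702 and 0.0928, Fisher's exact test).

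Among promoter summits the BEAF-32 core was in 47.2% of 612 member windows and 34.8% of 1279 all-3 windows (adjusted p = 2.79e-06), the DRE core in 11.1% and 5.63% (adjusted p = 0.000207), the motif 1 core in 8.33% and 3.52% (adjusted p = 9.98e-05) and the TATA box in 24.2% and 35.8% (adjusted p = 2.79e-06, Fisher's exact test). Member promoters thus had larger shares than the windows around annotated TSSs for the BEAF-32, DRE and motif 1 cores, a difference that was not tested. Ohler motif 7 and CACACACA did not pass at promoters (adjusted p = 0.0735 and 0.39, Fisher's exact test). Outside promoters 1 motif passed, the CTCF core, with 29 member windows (6.40%) and 47 all-3 windows (3.06%, adjusted p = 0.0355, Fisher's exact test). The TATA box was in 27.2% of member and 33.6% of all-3 windows there and did not pass (adjusted p = 0.0599, Fisher's exact test). TATAAA was thus not confined to promoters in either set. The CTCF shares that follow cover all summits, at promoters or not. Regions of replicates 1 and 2 only and of replicates 2 and 3 only held the CTCF core in 0.549% and 1.18%. It was in 7.16% of the members with a lower replicate 2 summit and 3.86% of those with none, and set against all-3 regions these last did not pass (adjusted p = 0.165, Fisher's exact test).

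Motif calls differed between the 2 parts of the list by GC content, but whether the differences themselves varied between the parts was not tested. The part at or below the list median held fewer members, 394 against 671. Above the list median of GC 6 motifs passed, among them the BEAF-32 core with 41.3% of member and 30.3% of all-3 windows (adjusted p = 4.41e-05), the DRE core with 8.05% and 3.21% (adjusted p = 8.79e-05), the motif 1 core with 6.41% and 2.43% (adjusted p = 0.000259) and the TATA box with 17.1% and 23.6% (adjusted p = 0.0049, Fisher's exact test). The CTCF core had 6.71% and 5.29% there and did not pass (adjusted p = 0.386, Fisher's exact test). By GC quartile its direction changed within this part. It was in 10.7% of members and 3.34% of all-3 regions in the third quartile, and in 4.58% and 7.89% in the highest. At or below the list median none of the 18 motifs passed Fisher's exact test after adjustment. There the BEAF-32 core had 30.2% and 24.1% (adjusted p = 0.0967), the DRE core 4.06% and 2.41% (adjusted p = 0.198) and the TATA box 39.6% and 42.2% (adjusted p = 0.485, Fisher's exact test). For the CTCF core the shares there were 2.28% and 0.722% (adjusted p = 0.0967, Fisher's exact test). Its difference was 1.56 percentage points there and 1.42 above the list median. Over GC quartiles, lowest first, members had the BEAF-32 core in 34.6%, 26.3%, 37.6% and 43.2%. All-3 regions had it in 21.5%, 26.7%, 31.4% and 28.7%. The BEAF-32 difference thus did not follow GC in order, and these quartile shares were not tested.

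**Figure D4:**
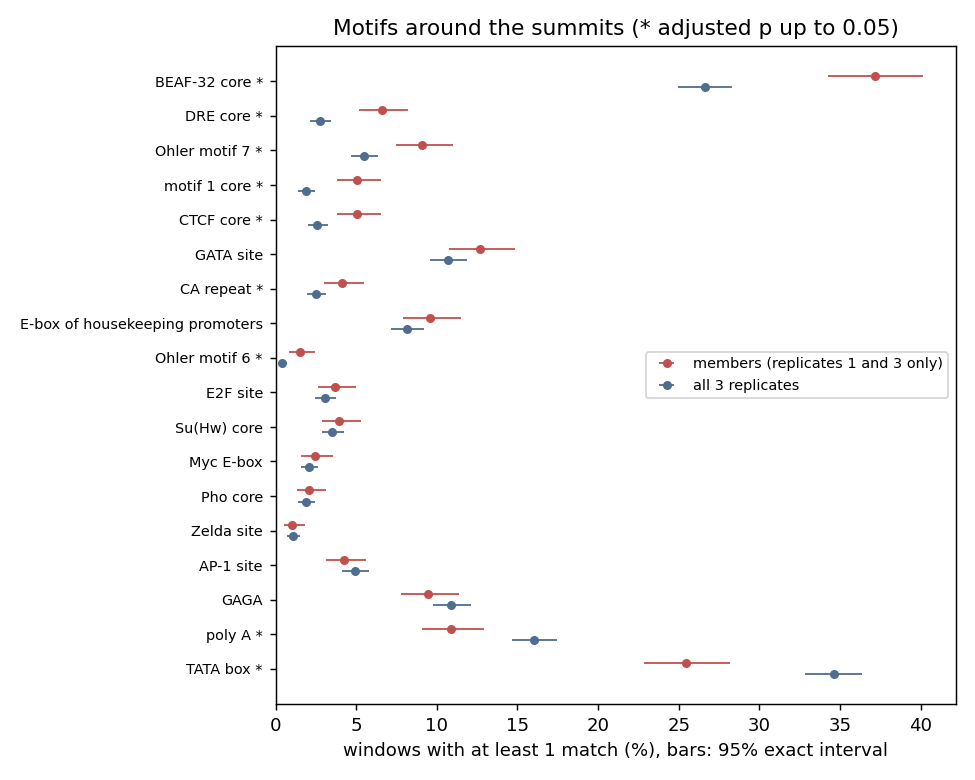
Share of windows of 100 bp to either side of the summit (%, x axis) with at least 1 match to each motif in members and all-3 regions, with exact 95% intervals. Stars mark the 9 motifs past an adjusted p of 0.05, of which the TATA box and the A run are lower in members.

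Member regions lay at the promoters of 782 of 13968 protein-coding genes (5.6%), and all-3 regions at those of 1584 (11.3%), with 42 genes in both sets. These shares are the background for the gene lists, which were counted and not tested. Members were at a larger share than this background in 12 of the 18 lists, and in 10 with a TSS distance of 250 bp, where the background was 4.73% and mesoderm and muscle genes (3.33%) and heat shock genes (4.35%) were below it. All-3 regions also exceeded their own background of 11.3% in most of the 18 lists, so such a count is not particular to members.

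The genes of cytoplasmic ribosomal proteins, the structural proteins of the ribosome, stood highest. Member regions lay at 38 of 86 of them (44.2%, 33.5 to 55.3%) and all-3 regions at 16 (18.6%). Their member regions had signals of 117.8 to 423.3 with a median of 212.8, against the median of 148.7 for all members. The GC content was above the list median in 32 of the 38 regions, and likewise in 14 of the 17 all-3 regions at these genes. The median summit lay at -36.5 bp from the TSS of the ribosomal protein gene. The BEAF-32 core was in 27 of the 38 windows and the DRE core in 10, and at 17 all-3 regions of this list in 11 and 4. In 29 of the 38 no replicate 2 summit lay inside the region, but at RpL41, RpL27A and RpL23 a top one lay 77, 253 and 206 bp from the member's summit.

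RpL14 and Nelf-E, a gene of the NELF complex of polymerase pausing, share the strongest of these regions, with a signal of 423.3, its summit at -49 bp from RpL14 and at -78 bp from Nelf-E. It ranked 310, 9420 and 555 in replicates 1, 2 and 3. RpL22 followed with a signal of 381.3 at -66 bp. RpL11 (summit at 19442300 on 2R) had a signal of 349.5 at -42 bp and ranks of 366 and 928 in replicates 1 and 3. The nearest replicate 2 summit lay 54618 bp from it.

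At RpL41 (signal 335.8) a top replicate 2 summit lay 77 bp away, outside the region, so its place among the members rests on the region's end. RpL26 (328.9), RpL13A (295.9), RpS4 (293.7) and RpLP0 (286.9) had no replicate 2 summit within 500 bp. RpL24 (signal 322.02) ranked 646, 24463 and 737 in replicates 1, 2 and 3. RpS3A, on chromosome 4, had a signal of 207.4 and was 175860 bp from a replicate 2 summit. The lowest were RpL7A (123.6) and RpS14a (117.8). The last has a near-identical copy beside it, so that its reads may be split, which was not tested. The promoter difference between members and all-3 regions was smaller without the regions at these genes (55.9% against 45.1%), and it passed (adjusted p = 2.15e-08, by Fisher's exact test). As many motifs passed as with them.

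Genes of the mitochondrial ribosome had a member region at 12 of 75 (16%) and an all-3 region at 10 (13.3%). The strongest were mRpL4 (signal 271.4), mRpL47 (210.1) and mRpS7 (187.4), the last sharing its region with Cdk1, the kinase that drives entry into mitosis. Translation factors and aminoacyl-tRNA synthetases had members at 13 of 88 (14.8%) and all-3 regions at 16 (18.2%). Those of highest signal were the cap-binding repressor gene eIF4EHP (313.3), eEF5 (209.1) and the elongation factor gene eEF2 (205.2). A top replicate 2 summit (rank 523) lay 143 bp from the summit at eIF4EHP, outside the region, so that it too is a member by the region's end.

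Cell cycle regulators had members at 8 of 33 (24.2%) and all-3 regions at 6 (18.2%). The spindle checkpoint gene BubR1 (196.5), Cdk1 (187.4) and the mitotic kinase gene polo (176.4) led this list, and the first of these ranked 2527 and 1995 in replicates 1 and 3, without a replicate 2 summit. DNA replication genes had a member at 1 of 46 (2.17%) and all-3 regions at 10 (21.7%). The 1 gene was dup, which encodes the licensing factor Cdt1, with a signal of 226.4 and ranks of 1020, 11967 and 2009 in replicates 1, 2 and 3, and it also had an all-3 region.

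General transcription factors and Mediator subunits had members at 3 of 71 (4.23%) and all-3 regions at 16 (22.5%). The 3 genes were TfIIA-S (271.7), MED16 (177.4), which had a replicate 2 rank of 5138, and TfIIB (159.1). A top replicate 2 summit (rank 2955) lay 52 bp from the TfIIA-S summit, outside a narrow region, so membership there rests on the region's end. Histone acetyltransferase complexes had members at 3 of 39 (7.69%), namely Spt7 (149.8), chm (136.7) and Tip60 (107.3), and all-3 regions at 8 (20.5%). Respiratory chain and ATP synthase genes had members at 4 of 83 (4.82%) and all-3 regions at 13 (15.7%), with COX6B (210.6), ATPsynbeta (158.2) and RFeSP (142.8) strongest among the members.

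Polycomb and Trithorax group genes had members at 6 of 33 (18.2%) and all-3 regions at 10 (30.3%). Jarid2 (153.4), the Polycomb gene Pc itself (152.8) and the histone methyltransferase gene trx (143.5) were strongest. Insulator, promoter-binding and pausing factors had members at 5 of 21 (23.8%) and all-3 regions at 7 (33.3%). After Nelf-E came Dref, the DRE-binding factor, which shares its region with RpL13 (signal 237.3, ranks of 1266, 25023 and 1427 in replicates 1, 2 and 3), and Nelf-A (214.8).

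Segmentation and homeotic genes, which pattern the embryo, had members at 5 of 36 (13.9%) and an all-3 region at 1 (2.78%). The ligand gene wg (172.5), the head gap gene oc (146.4) and the posterior determinant gene nanos (144.7, in a region shared with CG11779) were strongest, with GC contents of 60.2%, 49.3% and 54.7% around the summit. No replicate 2 summit lay in 4 of the 5 regions, and at nanos its rank was 15181. Signalling pathway genes had members at 11 of 53 (20.8%) and all-3 regions at 9 (16.98%), led by the EGF-type ligand gene spi (193.3), wg and the JAK/STAT transcription factor gene Stat92E (155.6).

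Counts in the remaining lists were small. Members lay at 3 of 30 mesoderm and muscle genes, Tm1 (170.4), how (166.6) and lbe (124.2), at 3 of 32 proteasome genes, Rpn13 (263.2), Prosbeta1 (151.05) and Rpn2 (126.9), and at 2 of 23 heat shock genes, Hsp83 (333.3) and Hsp22 (117.7). All-3 regions lay at 4, 3 and 4 genes of these lists. At Hsp83 a top replicate 2 summit (rank 3535) lay 70 bp away, outside the region. Of 31 neural genes 1, pros (186.98), and of 31 spliceosome genes 1, U2af50 (239.2), had a member, and 2 genes of each list an all-3 region. Of 180 chemosensory receptor genes 1 had a member and 0 an all-3 region.

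**Figure D5:**
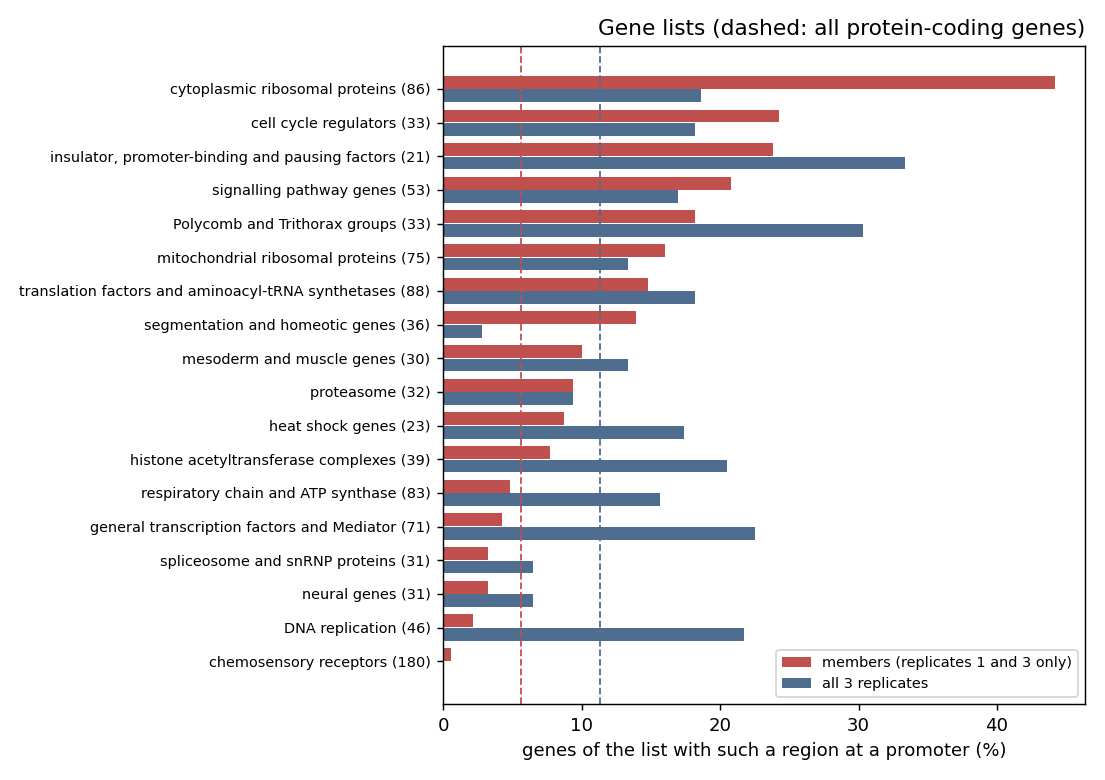
Share of the genes of each list (%, x axis; number of genes in brackets) with a member or an all-3 region within 500 bp of a TSS. The dashed lines are the shares of all protein-coding genes, 5.6% for members and 11.3% for all-3 regions; cytoplasmic ribosomal protein genes stand at 44.2% for members.

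The members were not spread over the chromosome arms as the all-3 regions were. On X lay 136 of 1065 members (12.8%) and 577 of 2815 all-3 regions (20.5%, adjusted p = 7.95e-08 over 6 arms, Fisher's exact test). On 3R lay 26.9% of members and 22.7% of all-3 regions (adjusted p = 0.0156) and on 2R 19.5% and 16.2% (adjusted p = 0.0223, Fisher's exact test). Both calls ended with the top 3000 lines of each replicate (adjusted p = 0.0563 for 3R and 0.854 for 2R, Fisher's exact test). The 2R call also ended when backing meant a top summit within 100 bp (adjusted p = 0.063) and in the stronger and weaker parts of the list (adjusted p = 0.186 and 0.0578), and the 3R call in the weaker part (adjusted p = 0.202, Fisher's exact test). The arms 2L (17.6% and 20.0%, adjusted p = 0.110) and 3L (22.2% and 20.5%, adjusted p = 0.250) did not pass Fisher's exact test.

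The small chromosome 4 held 12 members (1.13%) and 4 all-3 regions (0.142%, adjusted p = 0.000301, Fisher's exact test), a difference that did not pass in the weaker part of the list (adjusted p = 0.0669). Replicate 2 listed 28 regions there in all, against 278 in replicate 1 and 316 in replicate 3. Of its top regions 4 lay on chromosome 4, against 22 and 25 in replicates 1 and 3. An all-3 region needs a top summit of replicate 2, so the rule itself largely set this outcome. The chromosome 4 test is therefore given as a description only. Gaps over 40 kb between neighbouring summits numbered 166 in the replicate 2 list, against 373 and 399 in those of replicates 1 and 3. The 8 members over 40 kb from a replicate 2 summit were 3 on chromosome 4 (those at Cals and RpS3A and one with its summit at 982928), 2 on 2L (12483966 at bun, and 12497817 in the same gene) and 3 on 2R (19423269, 19425044 and, at RpL11, 19442300).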

How the data were processed

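ChIP-seq regions of chif-eGFP were taken from narrowPeak lists on dm6, 1 per replicate with 30000 lines each and 1 thresholded list, and the same lists on dm3. The authors called regions per replicate and on pooled reads against 1 control file per build and thresholded them by the irreproducible discovery rate, which measures how well ranks repeat, per the file headers and the notes that accompany the samples. For the aligner and the caller, names are not given in the sources used. The deposited signal (column of signal values) is the authors' own score per region, used here only to rank, filter and describe regions within a list. Each list's length is fixed and depth is unknown, so no interval covers read sampling.

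From there, summits were matched to thresholded regions (168 of which overlap the next), TSSs (23694 positions, Ensembl release 115, transposable elements left out) and Release 6 sequence. Each summit took 1 class, promoter first, then the exon classes (5' UTR, coding, 3' UTR, noncoding), intron and intergenic in that order. Members and all-3 regions were compared with Fisher's exact test, two-sided, in scipy 1.17.1, with Benjamini-Hochberg adjustment over 11 features, 18 motifs or 6 arms and a threshold of 0.05. The code was tested on simulated data. The members, motifs and gene lists were chosen with earlier results of these data known. Named are the 12 members of highest signal, the 3 genes of highest member signal per list (for ribosomal proteins others were named after their values were seen), the 3 regions on either side of the rank limit and the 5 strongest members without a replicate 2 summit. Of the list entries, 8 matched no annotated gene and 17 matched by an older symbol of 1 gene only. No signal of 1 list was compared with that of another, and pooled unthresholded lists were left out. Alternatives varied the number of top lines, the overlap rule, the TSS distance, the window, the signal and GC range, and the replicates used.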

Additional observations from a re-analysis of the deposited data

How the results depend on the processing

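Differences are in percentage points, members minus all-3 regions. The GC difference kept its direction and its call under all alternatives that did not leave out a replicate, and the promoter difference under all but 1 of them. The size of the GC difference varied with the window. It was 22.05 in the main setting, 27.96 with 50 bp to either side of the summit and 10.57 with 150 bp. Among promoter summits the GC difference was 27.91, and outside promoters 13.99. With the top 3000 lines there were 570 members, the upstream and divergent differences no longer passed (-1.57, adjusted p = 0.633, and -6.31, 0.13, Fisher's exact test), and 2 arms passed. With no summit in the whole replicate 2 list there were 674 members. Backing by a top summit within 100 bp ended the call for neighbours within 2 kb (-2.79). In the stronger part of the list (306 members) upstream and neighbour differences did not pass (-1.01 and -5), the divergent difference turned to 1.41 and that of 3L to -1.84; in the weaker part the neighbour difference did not pass (-4.94) and 1 arm passed. A TSS distance of 1000 bp ended the upstream and divergent calls (-2.99 and -4.95). Outside promoters 1 motif passed.

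The splits by GC, by distance to replicate 2 summits and without ribosomal protein genes were chosen after seeing the data. Above the list median of GC the upstream and divergent differences did not pass (-4.07 and -6.14), and at or below it neither these (-2.09 and -1.95) nor the promoter difference (2.72) nor any motif (0) passed, with the CACACACA difference at -0.683. The cause was not tested. Fewer regions were compared in each of these splits.

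Without each replicate in turn the sets change: without replicate 2, members are all regions backed by replicates 1 and 3, compared with all other thresholded regions. The number of members ranged from 1276 to 3880, the promoter difference from 5.71 to 11.45, the upstream difference from -6.07 to 2.06, the intron difference from -9.28 to -3.999 (adjusted p = 0.073 without replicate 2, Fisher's exact test), the divergent difference from -9.35 to -1.11, the GC difference from -2.17 to 20.96, the neighbour difference from -5.32 to 2.81, the motifs passing from 1 to 9 and the arms passing from 0 to 5. For single features the ranges were -0.201 to 0.415 for coding exons, -0.0994 to 3.04 for motif 1, -0.43 to 1.21 for Ohler motif 6, -0.631 to 3.99 for Ohler motif 7, -1.04 to 1.66 for CACACACA, -2.78 to 0.455 for 2L, -0.922 to 4.04 for 3R and -0.107 to 1.11 for chromosome 4. The extremes nearest to or past 0, and 3880 members, were those without replicate 2. Without replicate 1 or replicate 3 all 5 differences passed (Fisher's exact test). On dm3, 978 of 4680 regions (20.9%) were members. No paired analysis was possible because all samples belong to 1 group. Depth is unknown, so whether a region missing from replicate 2 was missed for lack of reads was not tested.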
